A study of Mus musculus with 27 samples.

Results

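NRF2, the protein of Nfe2l2, is the main transcription factor of the cell's response to oxidants. Its gene and 9 of its textbook target genes (Nqo1, Hmox1, Gclc, Gclm, Srxn1, Txnrd1, Slc7a11, Gsr and G6pdx) are described here in hepatic stellate cells (HSCs), liver mesenchymal cells that store retinoid. The 10 genes were listed by name, with earlier results of these data known. All 10 stand among the 53379 genes of the count table and among the 18758 that passed a filter on low counts. RNA of HSCs from male Balb/c mice, isolated on a sorter by retinoid fluorescence under ultraviolet light and not cultured, was sequenced in 27 libraries that fell into 7 groups. Injured mice received carbon tetrachloride (CCl4), which hepatocytes convert into a radical, intraperitoneally in mineral oil at 0.5 µL per g of body weight. In the acute groups, mice aged 10 to 12 weeks had 1 injection, with 3 libraries made 24 h later, 4 made 72 h later and 4 made 7 d later. In the chronic groups, mice aged 8 to 10 weeks had 8 injections over 4 weeks, and HSCs were taken 24 h, 72 h or 14 d after the last one (n = 4 each). The methods do not give the age of these mice when HSCs were taken, after the 4-week course. The healthy group (n = 4, aged 10 to 12 weeks) was not injected, so effects of CCl4, of the oil and of the injection cannot be told apart. Per the methods each repeat was a separate experiment, and all comparisons with healthy HSCs share the same 4 healthy libraries.

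In unstressed cells NRF2 is bound by KEAP1 and broken down. When oxidants or electrophiles modify KEAP1, NRF2 accumulates as a protein, pairs with a small MAF protein and binds antioxidant response elements near genes for cystine import, glutathione synthesis, peroxide reduction and NADPH supply. This control acts largely on the protein, so the Nfe2l2 transcript is not a direct measure of how active the factor is.

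Levels are given as CPM, counts per 1000000 counts of the library, adjusted between libraries with TMM factors (trimmed mean of M values). Library totals are given in M, where 1 M is 1000000 counts. Library totals ran from 6.32 to 13.1 M counts. There were 8 libraries of lower depth (at most 7.58 M), namely all those of chronic 14 d and, from chronic 24 h and chronic 72 h, only the libraries numbered 1 and 2, and the other 19 had at least 10.8 M. Nqo1 had 26 to 154 counts per library, and every other gene of the set had at least 103. The HSC label was borne out by the 10 stellate markers checked, Lrat, Des and Reln among them, none of which was at 0 in any library. Their summed level was 16700 to 24100 CPM in healthy libraries and lower, at 6240 to 15400 CPM, in all injured ones. Ecm1, with a mean of 9210 CPM in healthy, weighs most in this sum. The 10 markers did not move as one. At acute 24 h 1 was higher and 5 lower than in healthy, and at chronic 24 h 1 was higher and 7 lower. Mean Des was 966 CPM at acute 24 h against 537 CPM in healthy, and mean Pdgfrb 2150 CPM at chronic 24 h against 1050 CPM. Markers of other cells were present too. Neutrophil markers summed to 0 to 1.90 CPM in healthy and 2.55 to 49.7 CPM in injured libraries, with 3 to 5 of the 5 tested higher in each injured group. Sinusoidal endothelial markers summed to 119 to 400 CPM in healthy, 63.0 to 86.2 CPM in acute 24 h and 31.4 to 114 CPM in acute 72 h libraries, with 5 and 7 of 8 lower in these groups. Those of hepatocytes summed to 520 to 713 CPM in acute 24 h, 808 to 3520 CPM in healthy and up to 7540 CPM in chronic 14 d libraries, with the highest healthy sum in replicate 4 and the highest chronic 14 d sum in replicate 2. Serpina1b made up most of the hepatocyte sum at acute 24 h, with a mean of 517 CPM against 573 CPM in healthy. Mean Alb was 31.1 CPM there against 361 CPM in healthy, and 8 of the 10 markers were lower and none higher. Macrophage markers summed to 144 to 602 CPM in healthy, 147 to 204 CPM in acute 24 h, 179 to 472 CPM in acute 72 h and 325 to 3220 CPM in the other groups.

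Promoter sequences of RefSeq (GRCm38.p6, 250 bases before to 50 after a start site) were matched for 7 of the 10 genes, and they are shown to give the motif copies that each of these genes holds near its start. Hmox1, Gclc and Gsr were not matched. The core of the antioxidant response element was searched on both strands as TGACNNNGC and TGAGNNNGC, and the related AP-1 motif as TGACTCA. The first was found in 12.4%, the second in 17.6% and at least one of them in 27.8% of 32851 promoters of that length, and TGACTCA in 5.2%. These shares count promoters, and the 7 genes have 9 of them. Of the 7 genes, 6 held a match to either antioxidant response motif, and Nqo1 held none in the bases searched. Srxn1, which encodes sulfiredoxin, held 3 such matches, starting 158 and 45 bases before and 28 bases after its start. TGAGTCA, the reverse complement of the AP-1 motif, lay 102 bases before the start and again within the match at 45 bases, so these overlap. The stretch upstream of the gene (chr2:152105274-152105515, plus strand, intergenic in GENCODE M21) is printed with matches in capitals. Txnrd1 has 3 RefSeq starts, of which 1 has a match. For 4 further genes 60 bases around the single match are given in the direction of the gene, and capitals again mark the match. These lie at chr10:82859089-82859148 (plus strand, within an intron of Txnrd1), chr3:50443676-50443735 (minus strand, intergenic, before Slc7a11), chr3:122245398-122245457 (plus strand, intergenic, before Gclm) and chr2:75704854-75704913 (minus strand, before Nfe2l2, in an exon of the gene E030042O20Rik).
Srxn1: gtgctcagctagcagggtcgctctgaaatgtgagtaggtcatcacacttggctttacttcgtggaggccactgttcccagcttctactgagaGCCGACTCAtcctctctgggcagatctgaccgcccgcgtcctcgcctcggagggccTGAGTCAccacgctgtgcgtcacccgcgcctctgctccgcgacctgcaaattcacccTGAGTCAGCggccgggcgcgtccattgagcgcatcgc
Txnrd1: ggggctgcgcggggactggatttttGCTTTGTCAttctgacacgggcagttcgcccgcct
Slc7a11: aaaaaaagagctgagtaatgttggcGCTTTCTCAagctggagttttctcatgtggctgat
Gclm: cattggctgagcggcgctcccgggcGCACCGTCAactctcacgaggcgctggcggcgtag
Nfe2l2: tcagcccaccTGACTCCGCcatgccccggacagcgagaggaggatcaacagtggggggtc
In G6pdx the match, GCTCAGTCA, starts 57 bases before the RefSeq start, at chrX:74428929-74428937 on the minus strand, where GENCODE M21 places an untranslated exon of the gene. A match of these letters is a description of the sequence and says nothing of whether NRF2 is bound there.

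The most genes of the set were called higher 24 h after CCl4, and the genes called were only some of the targets. At that time after a single injection, 5 of the 10 genes, Srxn1, Txnrd1, Slc7a11, G6pdx and Hmox1, rose in HSCs, where 15.5% of all genes tested were called higher (edgeR adjusted p below 0.05). These 5 were also higher 24 h after the last of 8 injections, where 17.1% of all genes were. Nqo1, Gclc, Gclm and Gsr were not called higher at 24 h in either group, and Nfe2l2 itself was lower at chronic 24 h. Without healthy replicate 4, however, Gsr and Gclm were called higher at acute 24 h. Leaving out each library in turn gave 3 to 7 genes higher at that time, so a gene not called is not shown to be unchanged. By 7 d after the single injection and 14 d after the last of 8, Srxn1, Txnrd1 and G6pdx lay within or near the healthy range, whereas Slc7a11 lay below every healthy library. Hmox1 lay above every healthy library in all 6 injured groups. Of all genes, 13.3% (chronic 14 d) to 39.8% (acute 24 h) did not overlap healthy, with 24.6% at acute 7 d. At chronic 14 d neither Slc7a11 (edgeR adjusted p 0.0725) nor Hmox1 (edgeR adjusted p 0.083) passed the test. With depth class as a term the Hmox1 log2 fold change there was 0.23 (edgeR adjusted p 0.782). In such bulk libraries fewer cells of a type and less RNA per cell cannot be told apart, which holds for every level reported here.

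**Figure D1:**
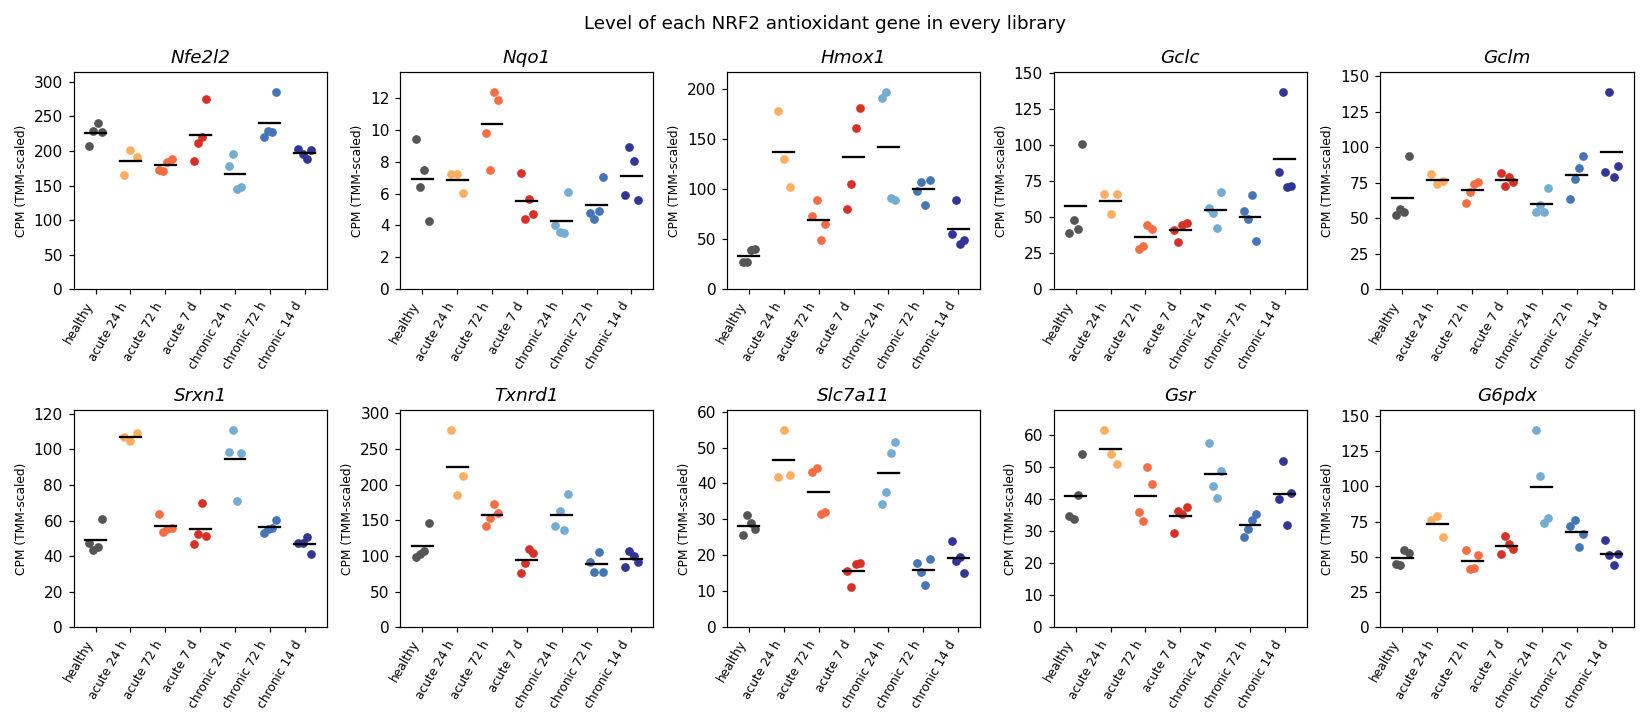
Level of each of the 10 genes (CPM, TMM-scaled, linear axes from 0) in the 27 libraries, with 1 point per library and a bar at the mean of each of the 7 groups. Srxn1, Txnrd1 and Slc7a11 peak at 24 h, and every Hmox1 point of the injured groups lies above the 4 healthy points, which end at 40.4 CPM.

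Nfe2l2, the gene of the factor itself (chr2:75675513-75704641, minus strand), stayed between 145 and 286 CPM in all libraries. Its level was 207, 229, 241 and 227 CPM in the 4 healthy libraries, 165, 201 and 192 in acute 24 h, 173, 171, 184 and 189 in acute 72 h and 186, 211, 220 and 275 in acute 7 d libraries. After repeated injury it was 178, 196, 145 and 148 CPM at 24 h, 221, 229, 228 and 286 at 72 h and 203, 195, 188 and 202 at 14 d. All acute 24 h, acute 72 h, chronic 24 h and chronic 14 d libraries lay below the lowest healthy one, while those of acute 7 d and chronic 72 h overlapped healthy. The fall passed the test at chronic 24 h (log2 fold change -0.44, SE 0.13, edgeR adjusted p 0.0103), not at acute 24 h (-0.28, edgeR adjusted p 0.118) or acute 72 h (-0.33, edgeR adjusted p 0.0602). A fit of the chronic 24 h and healthy groups alone gave -0.44 (edgeR adjusted p 0.0589). In no group was the transcript of the factor called higher than in healthy HSCs. From the highest group mean, chronic 72 h at 241 ± 30.1 CPM (SD, n = 4), to the lowest, chronic 24 h at 167 ± 24.8 CPM (SD, n = 4), all 6 pairs of neighbouring groups overlapped. Per length, Nfe2l2 was still the most abundant of the 10 transcripts in healthy HSCs, at a mean of 59.6 RPKM (CPM per kilobase of exon), ahead of Hmox1 (19.1), Srxn1 (17.5), Txnrd1 (16.1), G6pdx (16.0), Gclc (15.3), Gsr (14.9), Gclm (10.2), Nqo1 (4.44) and Slc7a11 (2.03).

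Srxn1 (chr2:152105516-152111376, plus strand) gave the sharpest pattern. Its product, sulfiredoxin, repairs overoxidised peroxiredoxins. Whether the motif matches printed above have a part in its level was not tested. Srxn1 stood at 47.2, 43.5, 45.1 and 61.2 CPM in healthy libraries, 107, 105 and 109 CPM in acute 24 h libraries and 98.6, 111, 71.3 and 97.8 CPM in chronic 24 h libraries. At both 24 h times every library was above every healthy one. The rise was 2.17-fold after 1 injection (log2 fold change 1.11, SE 0.15, edgeR adjusted p 5.08e-06) and 1.92-fold after 8 (log2 fold change 0.94, SE 0.14, edgeR adjusted p 1.66e-05). Chronic 24 h replicate 3, at 71.3 CPM, was the lowest of the 7 libraries taken at 24 h. At later times levels were 63.6, 53.6, 55.5 and 55.8 CPM (acute 72 h), 47.1, 52.3, 69.9 and 51.5 (acute 7 d), 53.2, 55.4, 56.0 and 60.1 (chronic 72 h) and 47.4, 47.6, 50.9 and 41.0 (chronic 14 d). All 4 of these groups overlapped healthy and none differed from it in the test, with log2 fold changes from -0.08 to 0.21. In the order of means the only gap between neighbours fell between chronic 24 h (94.7 ± 16.7 CPM, SD, n = 4) and acute 72 h (57.1 ± 4.42 CPM, SD, n = 4).

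Txnrd1 (chr10:82833951-82897712, plus strand), cytosolic thioredoxin reductase, which uses NADPH to keep thioredoxin reduced, rose most after the first injury. Its level was 98.9, 103, 107 and 147 CPM in healthy, 277, 186 and 212 in acute 24 h, 142, 154, 173 and 161 in acute 72 h and 76.7, 90.3, 110 and 104 CPM in acute 7 d libraries. It was 142, 163, 137 and 187 CPM at chronic 24 h, 91.9, 78.3, 106 and 77.7 at chronic 72 h and 85.3, 107, 100 and 91.2 at chronic 14 d. The acute 24 h libraries lay above all libraries of the other groups but 1, chronic 24 h replicate 4, which passed the lowest of them by a little. At acute 24 h Txnrd1 was 1.98-fold higher than in healthy HSCs (log2 fold change 0.98, SE 0.17, edgeR adjusted p 9.08e-05). Smaller rises were called at acute 72 h (log2 fold change 0.47, SE 0.16, edgeR adjusted p 0.0361) and chronic 24 h (log2 fold change 0.47, SE 0.16, edgeR adjusted p 0.0264). The first was lost without any one of healthy replicates 1, 2 and 3 or acute 72 h replicates 2, 3 and 4, and the second without any one of healthy replicates 1, 2 and 3 or chronic 24 h replicates 2 and 4. Without healthy replicate 1 the acute 72 h value was 0.40 (edgeR adjusted p 0.101) and without chronic 24 h replicate 4 the chronic 24 h value was 0.37 (edgeR adjusted p 0.105), and in the libraries of higher depth alone the latter was 0.52 (edgeR adjusted p 0.0841).

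Slc7a11 (chr3:49892526-50443614, minus strand), the cystine carrier subunit of the transporter xCT that feeds glutathione synthesis, moved in both directions. Healthy libraries held 25.8, 31.2, 28.9 and 27.3 CPM. After 1 injection the level was 41.9, 54.9 and 42.5 CPM at 24 h, 43.3, 44.2, 31.4 and 32.0 at 72 h and 15.6, 11.3, 17.5 and 17.9 at 7 d. After 8 injections it was 34.2, 37.7, 48.4 and 51.4 CPM at 24 h, 18, 15.4, 11.8 and 19.0 at 72 h and 24.0, 18.6, 19.7 and 15.1 at 14 d. None of the 6 groups overlapped healthy. All libraries of acute 24 h, acute 72 h and chronic 24 h were above the healthy range, and all those of acute 7 d, chronic 72 h and chronic 14 d were below it. The rises were 1.64-fold at acute 24 h (log2 fold change 0.71, SE 0.20, edgeR adjusted p 0.00722) and 1.52-fold at chronic 24 h (log2 fold change 0.60, SE 0.19, edgeR adjusted p 0.0161), and the falls 1.82-fold at acute 7 d (log2 fold change -0.86, SE 0.19, edgeR adjusted p 0.00177) and 1.76-fold at chronic 72 h (log2 fold change -0.82, SE 0.19, edgeR adjusted p 0.00317). Acute 72 h (0.41, edgeR adjusted p 0.116) and chronic 14 d (-0.55, edgeR adjusted p 0.0725) did not pass. Both calls at 24 h turned on 1 library, since without acute 24 h replicate 2 the value was 0.58 (edgeR adjusted p 0.0586) and without chronic 24 h replicate 4 it was 0.50 (edgeR adjusted p 0.0707). In the order of means, from 46.5 ± 7.36 CPM (SD, n = 3) at acute 24 h to 15.6 ± 3.01 CPM (SD, n = 4) at acute 7 d, gaps lay on either side of healthy and nowhere else.

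Gclc and Gclm encode the catalytic and the modifier subunit of glutamate-cysteine ligase, the rate-limiting enzyme of glutathione synthesis, and neither was called at 24 h, when Slc7a11 rose. Gclc (chr9:77754535-77794485, plus strand) was at 39.3, 48.3, 41.4 and 101 CPM in healthy, 66.1, 51.9 and 66.3 in acute 24 h and 56.5, 53.1, 42.2 and 67.5 in chronic 24 h libraries. The group with the highest mean was chronic 14 d, at 81.0, 137, 70.7 and 71.7 CPM. Elsewhere it was 27.7 to 44.5 CPM (acute 72 h), 32.5 to 45.9 (acute 7 d) and 33.1 to 65.4 (chronic 72 h). All 6 groups overlapped healthy, and Gclc was called in none, with log2 fold changes from -0.68 (interval -1.25 to -0.11) to 0.65 (interval 0.08 to 1.22). Healthy replicate 4, at 101 CPM, was far above the other healthy libraries. Without it the chronic 14 d rise was 1.07 (edgeR adjusted p 0.00656).

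Gclm (chr3:122245557-122270732, plus strand) was at 52.3, 56.2, 54.5 and 93.8 CPM in healthy, 81.0, 74.3 and 75.9 in acute 24 h, 60.8, 68.5, 74.3 and 75.4 in acute 72 h and 82.0, 72.5, 78.7 and 75.2 CPM in acute 7 d libraries. In the chronic groups it was 54.6, 59.0, 54.1 and 71.0 CPM at 24 h, 63.3, 77.7, 85.6 and 93.8 at 72 h and 82.5, 139, 79.0 and 86.4 at 14 d. Apart from healthy replicate 4, every healthy library was below every library of acute 24 h, acute 72 h, acute 7 d, chronic 72 h and chronic 14 d. Gclm rose at chronic 14 d (log2 fold change 0.59, SE 0.18, edgeR adjusted p 0.0466), a call that was lost without chronic 14 d replicate 2, at 0.40 (edgeR adjusted p 0.187), and without healthy replicates 1, 2 or 3 in turn (lowest 0.51). With depth class as a term it was 0.84 (edgeR adjusted p 0.061). Without healthy replicate 4 it was higher at acute 24 h (0.50, edgeR adjusted p 0.0332), acute 7 d (0.51, edgeR adjusted p 0.0295) and chronic 72 h (0.56, edgeR adjusted p 0.0188). Healthy replicate 4 and chronic 14 d replicate 2 had the highest level of both ligase subunits in their groups and also the highest hepatocyte marker sums in their groups (3520 and 7540 CPM). With both left out, a choice made after seeing the data, Gclc (0.79, edgeR adjusted p 0.0305) and Gclm (0.60, edgeR adjusted p 0.00891) were both higher at chronic 14 d. The part of hepatocyte RNA in these levels was not tested.

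Gsr (chr8:33652523-33698163, plus strand) encodes glutathione reductase, which regenerates glutathione with NADPH. It was at 34.9, 33.8, 41.5 and 54.1 CPM in healthy, 61.7, 54.3 and 50.9 in acute 24 h and 57.6, 44.3, 40.3 and 48.9 in chronic 24 h libraries. At the other times it was 33.2 to 50.2 CPM (acute 72 h), 29.4 to 37.6 (acute 7 d), 28.1 to 35.3 (chronic 72 h) and 31.9 to 52.1 (chronic 14 d). Every group overlapped healthy and none was called. The largest difference was at acute 24 h (log2 fold change 0.44, SE 0.18, edgeR adjusted p 0.0674), where healthy replicate 4 again was the highest healthy library, and without it the value was 0.60 (edgeR adjusted p 0.0135).

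G6pdx (chrX:74409483-74429194, minus strand), glucose-6-phosphate dehydrogenase, the entry enzyme of the pentose phosphate pathway and a main source of NADPH, was highest 24 h after the last of 8 injections. It stood at 45.2, 44.2, 54.9 and 53.0 CPM in healthy, 76.0, 79.3 and 64.1 in acute 24 h and 140, 107, 73.8 and 77.5 in chronic 24 h libraries. Both groups lay wholly above healthy. Later levels were 41.3 to 54.7 CPM at acute 72 h, 52.2 to 65.0 at acute 7 d, 57.2 to 76.3 at chronic 72 h and 44.4 to 61.8 at chronic 14 d. Chronic 72 h alone of these did not overlap healthy (0.46, edgeR adjusted p 0.0592). The rise was 2.02-fold at chronic 24 h (log2 fold change 1.01, SE 0.17, edgeR adjusted p 7.62e-05) and 1.48-fold at acute 24 h (log2 fold change 0.57, SE 0.18, edgeR adjusted p 0.0179). Within chronic 24 h, the high values were those of replicates 1 and 2, the libraries of lower depth, and in those of higher depth the rise over healthy was 0.63 (edgeR adjusted p 0.0075). The acute 24 h call was lost without replicate 2 of that group (0.51, edgeR adjusted p 0.0752), replicate 1 of it (0.54, edgeR adjusted p 0.0601) or healthy replicate 2 (0.52, edgeR adjusted p 0.0505). Exons of Ikbkg overlap those of G6pdx on the opposite strand, and because the strand of the counting is not given in the sources used here, reads of the pair may be mixed. Ikbkg itself was not called at either time (log2 fold change -0.32 at acute 24 h, edgeR adjusted p 0.27, and 0.10 at chronic 24 h, edgeR adjusted p 0.733). The intronless copy G6pd2 had 451 counts in all libraries against 17627 for G6pdx.

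Nqo1 (chr8:107388225-107403206, minus strand), a quinone reductase that is often used as a readout of NRF2, was weakly expressed and not called higher than healthy in any group. It was at 9.43, 6.44, 7.50 and 4.25 CPM in healthy, 7.21, 7.20 and 6.06 in acute 24 h, 9.83, 7.45, 12.4 and 11.9 in acute 72 h and 7.28, 4.43, 5.63 and 4.75 CPM in acute 7 d libraries. In the chronic groups it was 4.05, 3.57, 3.51 and 6.08 CPM at 24 h, 4.80, 4.43, 4.90 and 7.05 at 72 h and 5.94, 8.95, 8.06 and 5.58 at 14 d. All 6 groups overlapped healthy. At acute 24 h the log2 fold change was -0.02, with an interval of -0.58 to 0.55 that excludes a 2-fold change, and at acute 72 h it was 0.59 (edgeR adjusted p 0.0957). Nqo1 was lower at chronic 24 h (log2 fold change -0.67, SE 0.26, edgeR adjusted p 0.0489), a call that was lost without any one of healthy replicates 1, 2 and 3 or chronic 24 h replicates 1, 2 and 3. Among the libraries of higher depth the value was -0.51 (edgeR adjusted p 0.288), and without healthy replicate 1 it was -0.49 (edgeR adjusted p 0.179).

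Hmox1 (chr8:75093621-75100589, plus strand), heme oxygenase 1, which breaks down heme and is induced by heme through release of the repressor BACH1 as well as by NRF2, changed most of the 10 genes. It was at 27.2, 27.5, 38.7 and 40.4 CPM in healthy libraries. After 1 injection it was 178, 130 and 102 CPM at 24 h, 73.1, 89.1, 49.3 and 64.7 at 72 h and 79.5, 105, 161 and 181 at 7 d, and after 8 injections 191, 197, 90.7 and 88.8 CPM at 24 h, 98.0, 107, 84.4 and 109 at 72 h and 55.4, 89.1, 44.6 and 49.4 at 14 d. No injured library overlapped the healthy ones, and the lowest of them, at chronic 14 d, still exceeded the highest healthy library of 40.4 CPM. Hmox1 rose 4.09-fold at acute 24 h (log2 fold change 2.03, SE 0.32, edgeR adjusted p 3.2e-05), 2.06-fold at acute 72 h (log2 fold change 1.05, SE 0.30, edgeR adjusted p 0.0133) and 3.93-fold at acute 7 d (log2 fold change 1.98, SE 0.30, edgeR adjusted p 4.97e-05). It rose 4.23-fold at chronic 24 h (log2 fold change 2.08, SE 0.31, edgeR adjusted p 1.4e-05) and 2.98-fold at chronic 72 h (log2 fold change 1.57, SE 0.30, edgeR adjusted p 0.00058). At chronic 14 d it did not pass (log2 fold change 0.83, SE 0.30, edgeR adjusted p 0.083), and with depth class as a term the value was 0.23 (edgeR adjusted p 0.782). It passed in DESeq2, at 0.87 (DESeq2 adjusted p 0.0466), and with library size alone, at 1.00 (edgeR adjusted p 0.0295). In the order of means the only gap between neighbours was that between chronic 14 d (59.6 ± 20.1 CPM, SD, n = 4) and healthy (33.4 ± 7.07 CPM, SD, n = 4).

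Macrophages, which degrade heme and carry much Hmox1, were followed beside this gene by 12 markers. At acute 7 d 10 of the 12 were higher than in healthy HSCs, at chronic 24 h and chronic 72 h 8 of 12 and at chronic 14 d 4 of 12. Their sum was 252, 144, 407 and 602 CPM in healthy, 956, 1410, 2870 and 3220 CPM in acute 7 d and 1450, 1960, 405 and 674 CPM in chronic 24 h libraries. Within acute 7 d and chronic 24 h the 2 libraries with the higher sums were also those with the higher Hmox1 levels. In chronic 24 h these were replicates 1 and 2, the libraries of lower depth. The same held within healthy, acute 72 h and chronic 14 d, but not within chronic 72 h. There replicate 4 had the highest Hmox1 level (109 CPM) at a sum of 889 CPM, and replicate 2 had 107 CPM at a sum of 1840 CPM. At acute 24 h the sum was 180, 204 and 147 CPM, inside the healthy range, with 1 of 12 markers higher, while Hmox1 was 178, 130 and 102 CPM. The part of macrophage RNA in the Hmox1 levels was not tested. Markers of resident macrophages did not move together. Marco was at 0 in all 4 healthy libraries and none of the chronic 24 h ones. Means were also higher at chronic 24 h than in healthy libraries for Cd5l (86.8 against 40.1 CPM) and Vsig4 (30.4 against 21.6 CPM). They were lower for Clec4f (85.7 against 120 CPM) and Timd4 (3.91 against 6.08 CPM). Within the higher depth class, which leaves chronic 24 h replicates 3 and 4, Hmox1 was still higher (1.43, edgeR adjusted p 0.00283).

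**Figure D2:**
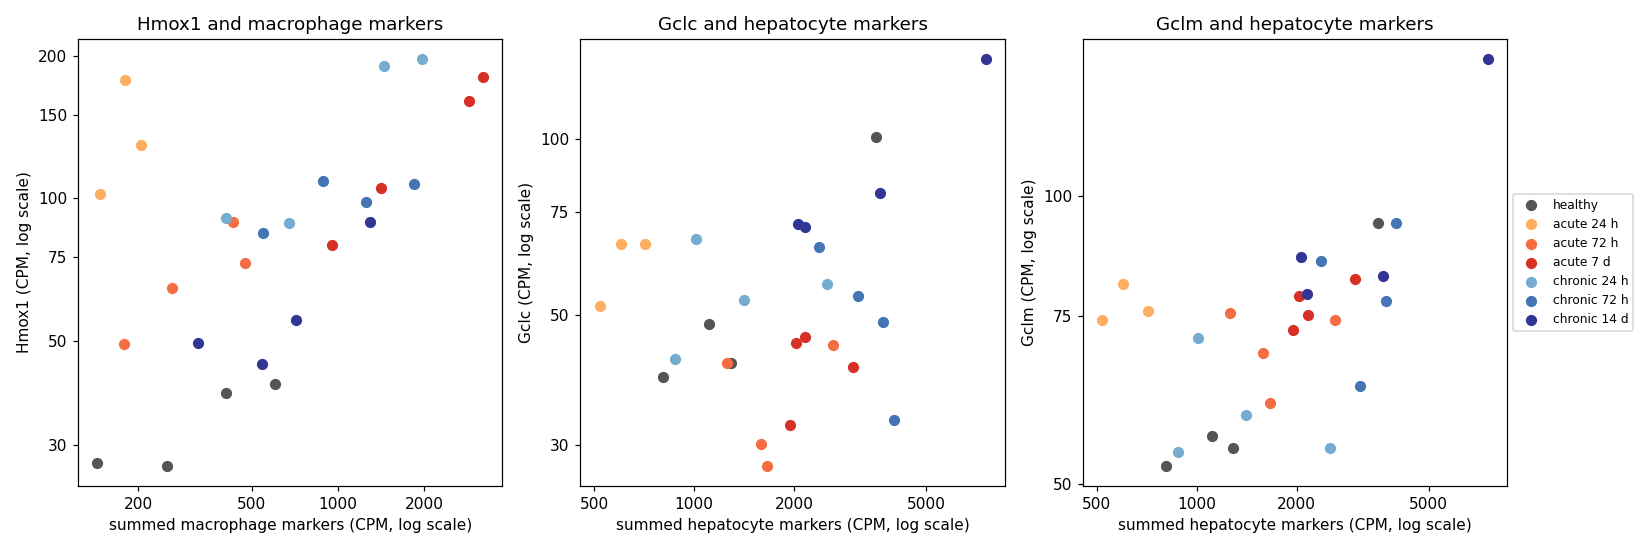
Level of Hmox1 against the summed level of 12 macrophage markers (left), and of Gclc (middle) and Gclm (right) against that of 10 hepatocyte markers, in CPM on log axes, with 1 point for each of the 27 libraries coloured by group. The 3 acute 24 h points are high in Hmox1 at macrophage sums of at most 204 CPM, and the library with the highest Gclc and Gclm, at 137 and 139 CPM, is also highest in hepatocyte markers (7540 CPM).

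Set against the healthy group, which asks what each stage of injury changed, 5 of the 10 genes were higher and none lower at acute 24 h, where 15.5% of all 18758 genes were higher and 18.1% lower. At acute 72 h 2 were higher (Hmox1 and Txnrd1) and none lower, with 13.1% and 8.81% of all genes. At acute 7 d Hmox1 was higher and Slc7a11 lower (13.1% and 10.6% of all genes). At chronic 24 h the same 5 genes as at acute 24 h were higher and Nfe2l2 and Nqo1 lower (17.1% and 14.0% of all genes). At chronic 72 h Hmox1 was higher and Slc7a11 lower (11.0% and 9.0%), and at chronic 14 d only Gclm was higher and none lower (5.12% and 3.49%). The median log2 fold change of the 10 genes was 0.50 at acute 24 h and 0.34 at chronic 24 h, against -0.12 and -0.03 over all genes, and it lay between -0.13 and 0.17 at the other 4 times. Groups without overlap with healthy were found for 6 of the 10 genes at acute 24 h (39.8% of all genes), 5 at chronic 24 h (26.4%), 3 each at acute 72 h (23.6%), chronic 72 h (21.1%) and chronic 14 d (13.3%), and 2 at acute 7 d (24.6%). Away from 24 h, the shares of the 10 genes called were thus near those of all genes.

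**Figure D3:**
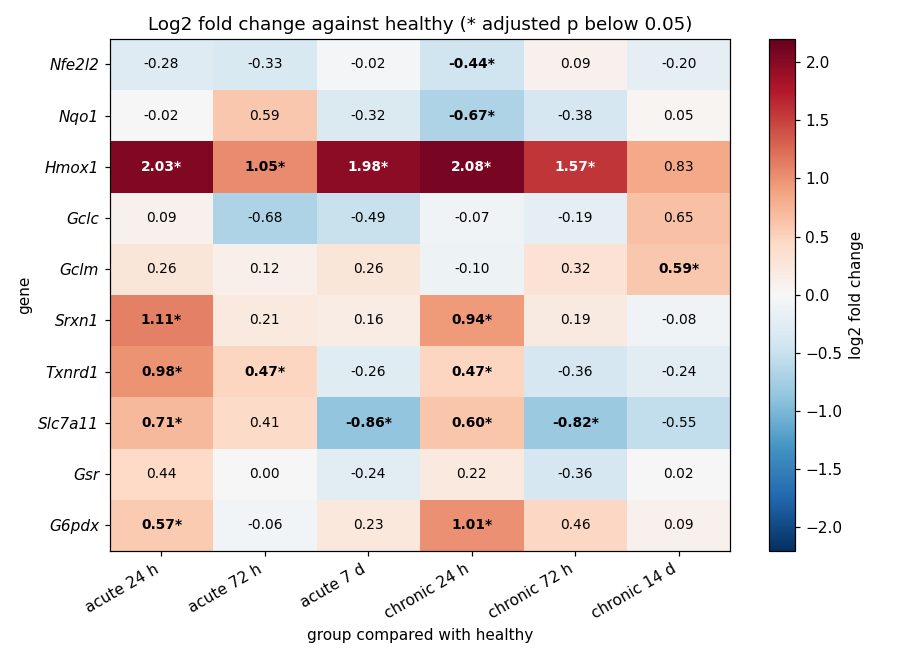
Log2 fold change of the 10 genes (rows) in the 6 injured groups (columns) against healthy, from edgeR, red for higher and blue for lower, with a star at an adjusted p below 0.05. Hmox1 carries a star in 5 of the 6 columns and Gclc and Gsr in none.

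Repeated injury was compared with the first at matched times to ask whether the response changed with the course of injury. The groups also differ in the age of the mice and, in part, in depth. At 24 h only Txnrd1 was called, and it was lower after 8 injections than after 1 (log2 fold change -0.52, SE 0.17, edgeR adjusted p 0.031), where 7.32% of all genes were lower and 14.0% higher. Without acute 24 h replicate 1, the highest library at 277 CPM, this difference was -0.34 (edgeR adjusted p 0.238), and at higher depth alone -0.50 (edgeR adjusted p 0.161). The call was also lost without any one of acute 24 h replicate 3 and chronic 24 h replicates 1 and 3. Srxn1 differed by -0.17 (interval -0.48 to 0.14), Slc7a11 by -0.11 (interval -0.52 to 0.30) and Hmox1 by 0.05 (interval -0.60 to 0.70). A change in Hmox1 of up to these bounds is thus not excluded. Between these groups 6 of 10 hepatocyte and 8 of 12 macrophage markers were higher after 8 injections, and their part in these differences was not tested. G6pdx had a level of 99.7 ± 31.0 CPM (SD, n = 4) against 73.1 ± 7.99 CPM (SD, n = 3), which did not pass (log2 fold change 0.45, SE 0.18, edgeR adjusted p 0.0874). At higher depth alone this difference was 0.02 (edgeR adjusted p 0.975), and without chronic 24 h replicate 3 it was 0.57 (edgeR adjusted p 0.0312).

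At 72 h the courses differed for more of the genes. Slc7a11 was 31.4 to 44.2 CPM after 1 injection and 11.8 to 19.0 CPM after 8, without overlap (log2 fold change -1.23, SE 0.19, edgeR adjusted p 0.0001). Txnrd1 was 142 to 173 CPM against 77.7 to 106 CPM, also without overlap (log2 fold change -0.83, SE 0.16, edgeR adjusted p 0.000914). Nqo1 was lower as well, at 4.43 to 7.05 CPM against 7.45 to 12.4 (log2 fold change -0.97, SE 0.26, edgeR adjusted p 0.0119). Nfe2l2 (log2 fold change 0.43, SE 0.13, edgeR adjusted p 0.0248) and G6pdx (log2 fold change 0.52, SE 0.17, edgeR adjusted p 0.0422) were higher after 8 injections. In all, 2 of the 10 genes were higher and 3 lower, with 7.12% and 7.80% of all genes, and 5 did not overlap between the groups (20.8% of all genes). Among libraries of higher depth alone Slc7a11 (-1.25, edgeR adjusted p 0.00462) and Nfe2l2 (0.56, edgeR adjusted p 0.0336) passed, and Txnrd1 (-0.74, edgeR adjusted p 0.0585), Nqo1 (-0.75, edgeR adjusted p 0.21) and G6pdx (0.42, edgeR adjusted p 0.125) did not. Without chronic 72 h replicate 4, the highest library at 286 CPM, the Nfe2l2 difference was 0.33 (edgeR adjusted p 0.0833), and that of G6pdx was 0.45 (edgeR adjusted p 0.121) without acute 72 h replicate 2. The Nfe2l2 call was also lost without acute 72 h replicates 1 or 2, that of Nqo1 without chronic 72 h replicate 2, and that of G6pdx without acute 72 h replicate 3 or chronic 72 h replicates 1, 2 or 4. With depth class as a term G6pdx differed by 0.27 (edgeR adjusted p 0.293). Between these groups 6 of 12 macrophage, 5 of 8 sinusoidal endothelial and 2 of 10 hepatocyte markers were higher after 8 injections, and their part in these differences was not tested.

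**Figure D4:**
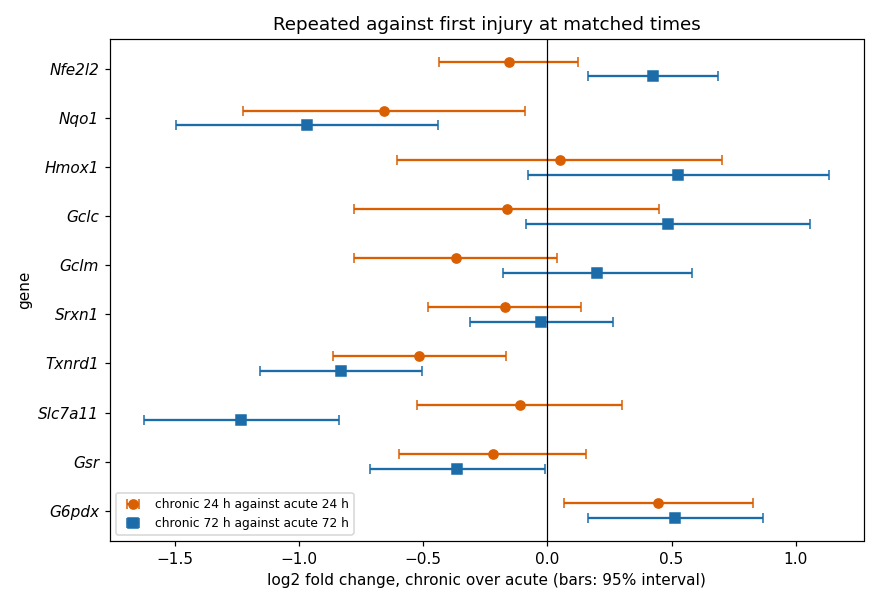
Log2 fold change of each of the 10 genes after 8 injections over that after 1, at 24 h (circles) and at 72 h (squares), from edgeR with 95% intervals that are not adjusted for the number of genes. Slc7a11 at 72 h (-1.23) lies farthest from 0, while its value at 24 h (-0.11) has an interval that includes 0.

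The course after 24 h was followed within each kind of injury. From 24 h to 7 d after a single injection 4 of the 10 genes fell and none rose, where 17.4% of all genes fell and 22.6% rose. These were Slc7a11 (log2 fold change -1.58, SE 0.20, edgeR adjusted p 2.11e-06), Txnrd1 (log2 fold change -1.24, SE 0.17, edgeR adjusted p 4.91e-06), Srxn1 (log2 fold change -0.95, SE 0.15, edgeR adjusted p 2.65e-05) and Gsr (log2 fold change -0.68, SE 0.18, edgeR adjusted p 0.00458). Hmox1 did not change detectably over this step (-0.06, interval -0.71 to 0.60), while 11 of 12 macrophage markers were higher at 7 d than at 24 h, as were 8 of 10 hepatocyte markers. From 24 h to 14 d after the last of 8 injections 5 genes fell and 2 rose, where 12.9% of all genes fell and 10.1% rose. Hmox1 (log2 fold change -1.25, SE 0.30, edgeR adjusted p 0.00381), Slc7a11 (log2 fold change -1.15, SE 0.19, edgeR adjusted p 0.000121), Srxn1 (log2 fold change -1.02, SE 0.14, edgeR adjusted p 1.57e-05), G6pdx (log2 fold change -0.93, SE 0.17, edgeR adjusted p 0.000381) and Txnrd1 (log2 fold change -0.71, SE 0.16, edgeR adjusted p 0.00218) fell. Gclm (log2 fold change 0.70, SE 0.18, edgeR adjusted p 0.00829) and Nqo1 (log2 fold change 0.72, SE 0.26, edgeR adjusted p 0.0461) rose, and Gclc was higher by 0.72 without passing (edgeR adjusted p 0.0642). The Nqo1 call was lost without any one of chronic 24 h replicates 1, 2 and 3 or chronic 14 d replicates 2 and 3. Over the same step 5 of 10 hepatocyte and 6 of 8 sinusoidal endothelial markers rose and none of them fell. Of 10 stellate markers 6 rose and 2 fell, and of 12 macrophage markers 2 fell and none rose. The part of these cells in the rises and falls of this step was not tested. All chronic 14 d libraries are of lower depth. Against chronic 24 h replicates 1 and 2 alone, of the same depth class, Srxn1 (-1.11, edgeR adjusted p 0.00498), Slc7a11 (-0.84, edgeR adjusted p 0.0337), G6pdx (-1.19, edgeR adjusted p 0.00711), Txnrd1 (-0.61, edgeR adjusted p 0.0465) and Hmox1 (-1.65, edgeR adjusted p 0.00753) remained lower, and Gclm (0.82, edgeR adjusted p 0.0759) and Nqo1 (0.96, edgeR adjusted p 0.0696) did not pass.

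A further 75 genes in 7 lists were taken from the pathway and from processes near it, and they do not cover the pathway in full. At acute 24 h 19 of them were higher than in healthy HSCs and 19 lower, and at chronic 24 h 20 were higher and 14 lower. Over all genes tested 15.5% were higher and 18.1% lower at acute 24 h, and 17.1% higher and 14.0% lower at chronic 24 h, and the counts of each list are to be read against these shares. Of 12 regulators and partners of NRF2, 2 were higher and 1 lower at acute 24 h and again at chronic 24 h, with no excess over all genes to be read from so few. The higher genes were Maff, a small MAF partner (1.77 and 1.30 on the log2 scale), and Dpp3, which binds KEAP1 (0.86 and 0.69). Btrc, an adaptor for NRF2 breakdown, was lower (-0.50 and -0.48). Keap1 was not called at either time (-0.29 and -0.07). Mafk, another small MAF gene, was lower at acute 72 h (-1.09), acute 7 d (-1.0), chronic 72 h (-0.72) and chronic 14 d (-0.93), with means of 298 CPM in healthy and 140 to 181 CPM in these groups.

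Among 14 genes of glutathione synthesis, use and export, 3 were higher and 4 lower at acute 24 h and likewise at chronic 24 h. The higher ones were Slc3a2, the heavy chain that partners the Slc7a11 protein (1.05 and 1.02), Gss, glutathione synthetase (0.96 and 0.73), and the exporter Abcc1 (1.36 and 1.09). The conjugating enzymes Gsta4 (-2.75 and -2.37) and Gstm1 (-1.55 and -1.20) were lower. Of 12 thioredoxin and peroxiredoxin genes 5 were higher and 1 lower at acute 24 h, and 4 and 1 at chronic 24 h. Glrx, glutaredoxin (1.56 and 2.04), and Prdx3, the mitochondrial peroxiredoxin (1.26 and 0.67), rose. Txnip, which inhibits thioredoxin, fell (-1.0 and -1.33). Of 7 enzymes that supply NADPH 3 were higher and 2 lower at acute 24 h and 4 higher at chronic 24 h. Pgls and Pgd, which follow G6pdx in the pentose phosphate pathway, rose by 1.59 and 1.29 at acute 24 h and by 0.92 and 0.75 at chronic 24 h on the log2 scale, and Mthfd2, a mitochondrial folate enzyme, by 3.12 and 2.70.

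Of 10 further heme and iron genes 1 was higher and 2 were lower at acute 24 h, and 2 were higher at chronic 24 h, near the shares of all genes. Tfrc, the transferrin receptor, rose (1.01 and 1.23), and Slc40a1, the iron exporter ferroportin, fell at acute 24 h (-2.18). Of 10 xenobiotic and aldehyde enzymes 2 were higher and 6 lower at both 24 h times. Ugdh, which makes the substrate of glucuronidation (1.91 and 1.61), and Akr1b8, an aldo-keto reductase (1.02 and 0.87), rose, and Ephx1, microsomal epoxide hydrolase (-2.44 and -2.65), fell and stayed lower than in healthy HSCs in all 6 groups (-0.89 at chronic 14 d). Among 10 antioxidant enzymes outside the core of the response, 3 were higher and 3 lower at acute 24 h and 3 and 2 at chronic 24 h. Gpx3, secreted glutathione peroxidase, showed the largest rise in these lists (3.59 and 4.06), from 87.6 ± 27.8 CPM in healthy (SD, n = 4) to 1056 ± 948 (SD, n = 3) and 1457 ± 243 CPM (SD, n = 4), and catalase (Cat) fell (-2.30 and -1.28). Of 10 hepatocyte markers 8 were lower at acute 24 h and 1 at chronic 24 h. Their sum at chronic 24 h was 879 to 2520 CPM, against 808 to 3520 CPM in healthy libraries. Cat, Ephx1 and Gsta4 are also strongly expressed by hepatocytes. The part of hepatocyte RNA in their fall was not tested. The genes named from these lists as higher or lower all had edgeR adjusted p-values below 0.05.

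Over the 27 libraries, the genes whose log2 CPM followed Nfe2l2 most closely, among 10292 genes whose mean log2 CPM was 3 or more, were Ypel3 (Pearson r 0.83), Cbr3 (0.826) and Dexi (0.801). For Hmox1 they were Ucp2 (0.889), Mrm1 (0.866) and Efhd2 (0.861), and for Nqo1 Rad21 (0.731), Cenpc1 (0.724) and Ddx59 (0.689). These values describe libraries that share groups, depth classes and marker levels, and none of the other 9 genes was among the 3 nearest to Nfe2l2, Hmox1 or Nqo1.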

How the data were processed

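RNA was measured in 27 libraries of sorted HSCs in 7 groups, taken from the labels. Per the labels and methods, the authors processed reads with FastQC, STAR and StringTie on GRCm38. The deposited values are raw counts per Ensembl gene. The counting step, its strand, tool versions and annotation release are not given in the sources used here. No column was left without a library. Symbols and positions came from GENCODE M21 and promoters from RefSeq (GRCm38.p6).

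Tests on these counts used edgeR 4.0.16 (R 4.3.3). Genes passing filterByExpr by group (18758 of 53379) were scaled by TMM and fitted in 1 robust quasi-likelihood model of all 27 libraries with a mean per group. The 10 comparisons were tested with Benjamini-Hochberg adjustment over all genes tested, and a gene was called at an adjusted p below 0.05, with no fold minimum. Intervals are at 95%, unadjusted. Log2 CPM used a prior count of 2, and RPKM the exonic length in GENCODE M21. Each library counts as 1 replicate. A p-value sets the difference of 2 group means against a dispersion estimated over all 7 groups with information shared between genes. Counts were also simulated for acute 24 h against healthy (18281 genes). Of 100 genes with a simulated log2 difference of 1, 39 were recovered, and of 100 with one of 2, 84 were, with 2 false calls. All other genes were left unchanged there, while 6319 genes were called in the data. The adjustment therefore acted differently, and these shares do not measure recovery in the data. Smaller changes can still be missed.

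Alternatives were DESeq2 1.42.0, other scalings, no low-count filter, a replicate block, depth class as a term, 1 depth class alone, 2 groups alone, a 2-fold minimum and each library left out. Leaving out healthy replicate 4 and chronic 14 d replicate 2, each highest in hepatocyte markers in its group, was added after seeing the data. The members, the marker and pathway lists and the tests were chosen with earlier results of these data known. Genes named from the pathway lists were at most the 3 with the largest change in each direction among those called, besides Keap1, which was named after its values were seen, and for Nfe2l2, Nqo1 and Hmox1 the 3 genes with the highest Pearson r.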

Additional observations from a re-analysis of the deposited data

Results flagged for a closer look

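In 5 of 60 groups of 4 libraries (10 genes in 6 groups), 1 library stood apart from the rest by Dixon's test at 95%, and chance alone flags about 1 in 20 groups. Nfe2l2 was 286 CPM in chronic 72 h replicate 4. Gclc was 101 CPM and Gclm 93.8 CPM in healthy replicate 4, and Gclc was 137 CPM and Gclm 139 CPM in chronic 14 d replicate 2. Both of these libraries had the highest hepatocyte marker sum of their group.

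The response after 8 injections differed from that after 1 at the same time, by the edgeR test of the difference itself, for 6 pairs of gene and time. On the log2 scale the difference was -0.52 for Txnrd1 at 24 h (edgeR adjusted p 0.031). At 72 h it was 0.43 for Nfe2l2, -0.97 for Nqo1, -0.83 for Txnrd1, -1.23 for Slc7a11 and 0.52 for G6pdx. Of these calls only that of Slc7a11 was kept under every alternative. The groups also differ in the age of the mice and, in part, in depth.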

How the results depend on the processing

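Of 100 pairs of gene and comparison 36 were called, 21 of them under all alternatives but the 2-fold minimum, and 15 were lost under at least 1 other. No called value changed sign. The cause of the changes was not tested. The number of the 10 genes called higher or lower moved by over 1.5 times as follows. With DESeq2 size factors acute 72 h against healthy had 1 higher and 1 lower, and with DESeq2 2 lower, while chronic 14 d had 2 higher. With library size alone 4 were higher at acute 72 h, 2 at chronic 72 h and 2 at chronic 14 d, 1 was lower at chronic 24 h, 1 was higher at acute 7 d than acute 24 h and 4 at chronic 14 d than chronic 24 h. That scaling moved the median of all genes to between 0.10 and 0.18 in 6 comparisons, with 63.7% instead of 56.5% of calls higher for acute 7 d against acute 24 h, 72.3% instead of 59.7% at acute 72 h, 66.2% instead of 55.3% at acute 7 d, 69.1% instead of 55.0% at chronic 72 h, 83.0% instead of 59.4% at chronic 14 d and 61.3% instead of 43.8% for chronic 14 d against chronic 24 h. Without the low-count filter 1 was higher at acute 72 h, 1 lower at chronic 24 h, 0 higher at chronic 14 d, 1 higher at chronic than acute 72 h and 1 higher at chronic 14 d than chronic 24 h. With depth class as a term 1 was lower at chronic 24 h, 0 higher at chronic 14 d, 0 lower at chronic than acute 24 h and 0 higher at chronic than acute 72 h. In 1 depth class alone these were 1 lower at chronic 24 h, 0 lower at chronic than acute 24 h, 1 higher and 1 lower at chronic than acute 72 h and 0 higher at chronic 14 d than chronic 24 h. No such fit was possible for chronic 14 d against healthy, which share no depth class. In fits of 2 groups alone 1 was higher at acute 72 h, 0 lower at chronic 24 h, 0 higher at chronic 14 d, 0 lower at chronic than acute 24 h and 1 higher at chronic than acute 72 h. Without healthy replicate 4 and chronic 14 d replicate 2, each highest in hepatocyte markers in its group, 2 were higher at acute 7 d, 2 at chronic 72 h and 2 at chronic 14 d, 2 lower at chronic than acute 24 h and 1 higher at chronic 14 d than chronic 24 h. With a 2-fold minimum 2 were higher at acute 24 h, 1 at acute 72 h, 2 at chronic 24 h and 0 at chronic 14 d, and 0 lower at acute 7 d, chronic 24 h and chronic 72 h. It left 0 lower at chronic than acute 24 h, 0 higher and 1 lower at chronic than acute 72 h, 2 lower at acute 7 d than acute 24 h, and 0 higher and 3 lower at chronic 14 d than chronic 24 h.

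Leaving out each library in turn gave 3 to 7 higher at acute 24 h, 1 to 2 higher and 0 to 1 lower at acute 72 h, 1 to 2 higher at acute 7 d, 3 to 5 higher and 1 to 2 lower at chronic 24 h, 1 to 2 higher at chronic 72 h, and 0 to 2 higher and 0 to 1 lower at chronic 14 d. It gave 0 to 1 higher and 0 to 2 lower at chronic than acute 24 h, 0 to 2 higher and 2 to 3 lower at chronic than acute 72 h, and 1 to 3 higher at chronic 14 d than chronic 24 h, where 5 stayed the count of lower genes.

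Replicate numbers are shared between groups, but deviations of same-numbered libraries correlated at -0.172 to 0.172, with no comparison where every pair was over 0.1, so they were not treated as pairs. With the replicate block 1 gene was lower at chronic 24 h, as Nqo1 was lost, 1 was higher at chronic 14 d than chronic 24 h, and 6 were higher at acute 24 h, as Gsr was added.

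Over all genes, the count called at chronic 14 d against healthy was 1615, but 858 with depth class as a term and 785 in a fit of the 2 groups alone. It was 2533 without healthy replicate 4, 1021 without healthy replicate 2, 1035 without chronic 14 d replicate 2 and 1040 without chronic 14 d replicate 3, and chronic against acute 24 h had 4000 but 2604 without acute 24 h replicate 2. The count at chronic 72 h against healthy was 3748 and 2369 in a fit of the 2 groups alone. Chronic against acute 72 h had 2799, but 1785 with the depth term and 1340 in 1 depth class, and chronic 14 d against chronic 24 h 4323 and 1902. The 2-fold minimum lowered the counts of all genes by 1.5 times or more in several comparisons, for example from 4104 to 2355 at acute 72 h. Nqo1 had the lowest counts of the 10 genes, at 26 to 154 per library.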
